A study of Mus musculus with 14 samples.

Results

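Phase II conjugating enzymes couple glutathione, glucuronic acid or sulfate to drugs, lipid peroxidation products, bile acids and hormones, which makes these compounds more water-soluble and easier to export. Glutathione transferases (Gst and Mgst genes) add glutathione, UDP-glucuronosyltransferases (Ugt genes) add glucuronic acid from UDP-glucuronate, and sulfotransferases (Sult genes) add sulfate from the donor PAPS. In the kidney the proximal tubule carries out most of this work, and it is also the segment that takes up and is injured by cisplatin, a platinum drug that crosslinks DNA. Members were taken by name, as every gene of the deposited table called Gst followed by a letter, Mgst, Ugt1, Ugt2, Ugt3 or Sult followed by a digit, with 8 pseudogenes left out. This gave 68 of 49584 genes, of which 26 were glutathione transferases, 21 UDP-glucuronosyltransferases and 21 sulfotransferases.

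The levels come from RNA sequencing of whole mouse kidney in 4 groups: conditional Ripk4 knockout mice (cKO) given cisplatin (4 libraries), wild-type mice (WT) given cisplatin (4), cKO mice left untreated (3) and WT mice left untreated (3). Cisplatin was injected intraperitoneally at 15 mg/kg, with collection 4 days afterwards. The Cre driver, the cells that lost Ripk4, the strain, the age and the sex are not given in the sources used here, nor whether each library is a separate animal, so p-values measure the spread between libraries. The series title names the kinase RIPK4, oxidative stress and ferroptosis (cell death by lipid peroxidation), and the comparisons ask how the drug and the knockout each moved these enzymes.

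Depth was 36.7 to 77.0 M assigned reads per library. Ripk4 itself was 5.32, 5.62, 9.09 and 3.61 FPKM in cKO cisplatin, 7.61, 10.6, 13.3 and 9 FPKM in WT cisplatin, 3.68, 3.98 and 4.61 FPKM in cKO untreated and 7.18, 8.11 and 8.51 FPKM in WT untreated, so the transcript remained present in cKO kidneys. It was lower in cKO after cisplatin (−0.72, adjusted p = 0.0216), where the libraries overlapped, and was not called between the untreated genotypes (−0.81, adjusted p = 1), where they did not. Summed over 12 proximal tubule markers, the level was 6190 to 8443 FPKM in cKO cisplatin, 2476.5 to 4539.8 in WT cisplatin, 7659.1 to 8088.1 in cKO untreated and 7817.9 to 8099.7 in WT untreated, and 2 of the defining markers, Lrp2 and Slc34a1, were present in every library. The library labelled cKO cisplatin replicate 4 stood apart: its sum over 9 tubular injury genes was 698 FPKM, against 2035.8 to 3995.3 in the other 3 cKO cisplatin libraries, 10695 to 18076 in WT cisplatin, 548 to 766 in cKO untreated and 617 to 674 in WT untreated. Its sum over 6 erythroid genes was 811 FPKM, where the other 7 cisplatin libraries lay between 19.4 and 31.2 and the 6 untreated libraries between 566 and 1175.3. On both lists this library lay in or near the range of the untreated kidneys, so results that rest on it are given with and without it. Replicate 1 of each cisplatin group had low podocyte sums, 70.6 FPKM in cKO and 44.1 FPKM in WT, against 132 to 200 FPKM in the other 12 libraries. Cell types were not separated, and in whole tissue fewer cells of a type and less RNA per cell cannot be told apart.

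Genes entered the tests when their mean over the 14 libraries was at least 0.5 FPKM (reads scaled by gene length in kilobases and by the M assigned reads of the library). This kept 40 of the 68 members: 22 of 26 glutathione transferases, 12 of 21 UDP-glucuronosyltransferases and 6 of 21 sulfotransferases. Of the 28 others, 11 were listed at 0 in every library, among them 6 of the 8 Sult2a genes, hydroxysteroid sulfotransferases best known from the liver, and Ugt2a1 and Ugt2a2. For these 11 genes, 3 reads would correspond to 0.0119 to 0.11 FPKM depending on gene length and depth, a limit that covers counting error only. It also takes reads to be assignable to 1 gene. Of the short exact stretches of transcript sequence, 97% in Ugt2a1 and 93.6% in Ugt2a2 also occur in other genes. Over the rest of the 11 this share ran from 0% (Sult2a7) to 62.1% (Sult2a2). How shared reads were counted is not given in the sources used here, so a listed 0 need not mean absence. The highest value of any member left out of the tests was 3.52 FPKM. Levels are given as FPKM, as mean ± SD, and fold changes as log2 ± SE on the log2(FPKM + 1) scale from a limma model of all 4 groups, with p adjusted by Benjamini-Hochberg over the 15193 genes tested. A member is said to have risen or fallen when this adjusted p was under 0.05.

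In the untreated WT kidney a handful of enzymes made up most of each family. Among glutathione transferases, Gstm1, a mu-class enzyme, stood at 531 ± 8.02 FPKM (SD, n = 3) and supplied 30.2% of the family's summed level. It was followed by Gstz1, the zeta-class maleylacetoacetate isomerase of tyrosine breakdown, at 191 ± 12.6 FPKM, Gsta2 at 148 ± 33.5, Gstt1 at 140 ± 18.9 and Gstt2 at 128 ± 16.5 FPKM, where the libraries of Gsta2, Gstt1 and Gstt2 overlapped and those of Gstm1 and Gstz1 lay apart. Among UDP-glucuronosyltransferases the order was Ugt3a2 at 799 ± 24.7 FPKM (43.0% of the family), Ugt2b38 at 322 ± 19.0, Ugt3a1 at 283 ± 38.6, Ugt2b37 at 269 ± 20.6 and Ugt1a7c at 156 ± 5.21 FPKM, where the libraries of Ugt2b38, Ugt3a1 and Ugt2b37 overlapped from each to the next. The UGT3A enzymes are known, from human work, to use UDP-sugars other than UDP-glucuronate. A single sulfotransferase, Sult1d1, a mouse enzyme known to act on catecholamines and phenols, stood at 396 ± 23.4 FPKM, with Sult1c2 next at 40.3 ± 5.91 and Sult1a1 at 9.53 ± 1.69 FPKM. In untreated cKO kidneys the same 3 leaders were at 516 ± 59.8 (Gstm1), 824 ± 53.2 (Ugt3a2) and 412 ± 42.2 FPKM (Sult1d1, SD, n = 3 each).

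**Figure D1:**
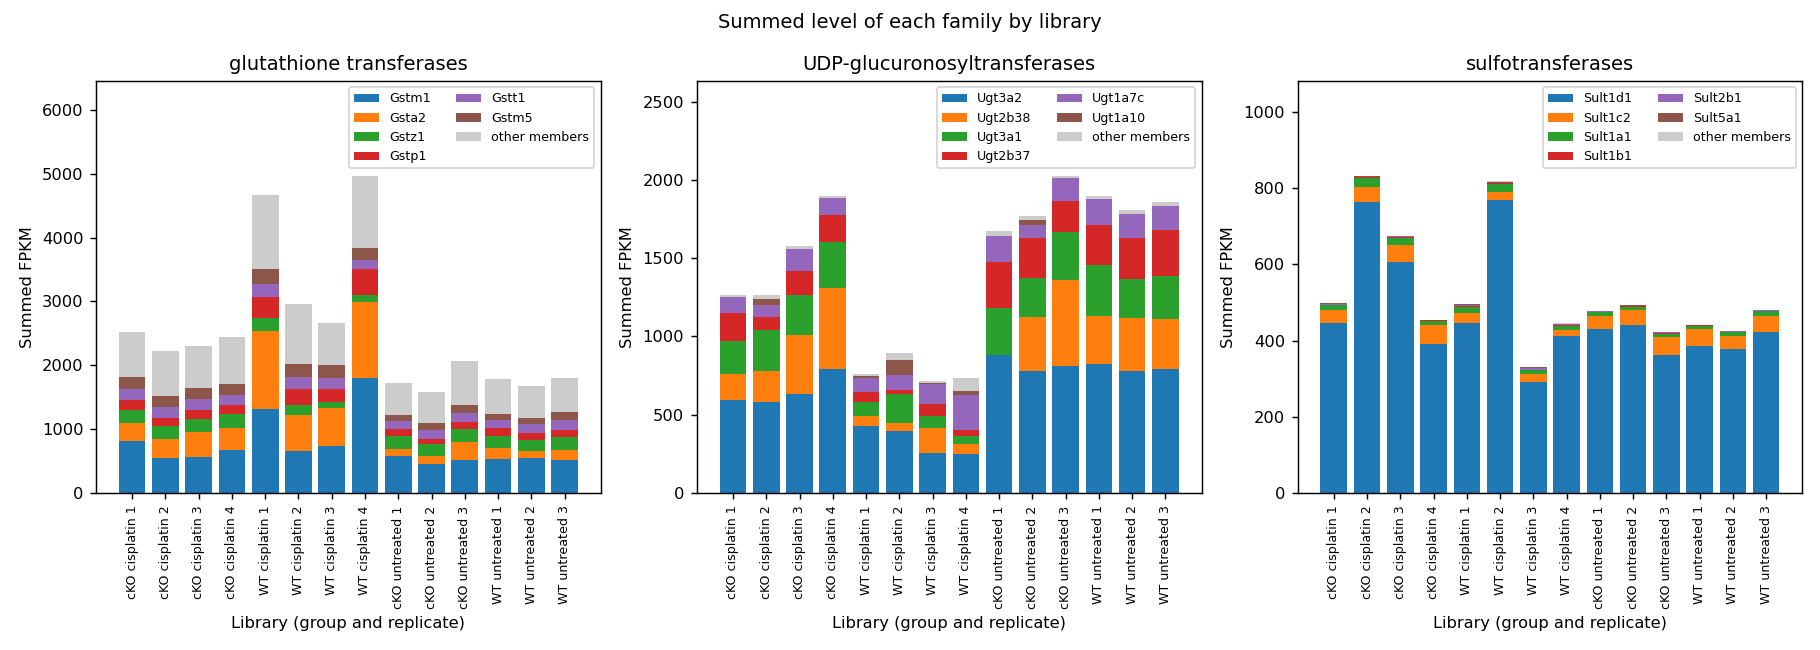
Summed FPKM of each enzyme family in each of the 14 libraries (bars, stacked by the 6 members with the highest mean level and the rest in grey; bars start at 0). Glutathione transferases are highest in WT cisplatin (2664.3 to 4965.3 FPKM), UDP-glucuronosyltransferases are lowest there (715 to 895 FPKM), and sulfotransferases are mostly Sult1d1.

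With cisplatin in WT kidneys the summed level of the glutathione transferases was higher and that of the UDP-glucuronosyltransferases lower, while the sulfotransferase sums overlapped. The summed level of the glutathione transferases was 4672.2, 2963.8, 2664.3 and 4965.3 FPKM in WT cisplatin, against 1776.6, 1680.4 and 1806.7 FPKM in WT untreated, a ratio of means of 2.18. The summed level of the UDP-glucuronosyltransferases was 763, 895, 715 and 732 FPKM in WT cisplatin, against 1900, 1808.8 and 1861.4 FPKM in WT untreated, a ratio of 0.418. In neither family did the libraries of the groups overlap. Sulfotransferases summed to 497, 818, 331 and 446 FPKM in WT cisplatin, against 442, 426 and 480 FPKM in WT untreated; these overlapped, and the ratio of 1.16 became 0.944 without the library labelled WT cisplatin replicate 2. Beside these sums, the proximal tubule markers were lower in WT cisplatin (9 of 12 fell and 0 rose), the tubular injury genes were higher (9 of 9 rose) and macrophage markers were higher (4 of 10 rose, with sums of 312 to 968 against 227 to 277 FPKM). Of 8 loop and distal tubule markers, 4 fell and 1 rose (median log2 change −1.03, against −1.19 over the proximal tubule markers). Over all genes tested, 22.3% rose and 12.1% fell. The part of these shifts in the results on the enzymes was not tested.

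Among the 40 members tested, 15 rose and 5 fell with cisplatin in WT, where 22.3% of all genes tested rose and 12.1% fell. In either direction 50% of the members tested were called, against 34.4% of all genes; the median log2 change was 0.32 over the members and 0.10 over all genes. The libraries of the groups did not overlap for 15 members higher and 6 lower, against 24.6% and 14.3% of all genes. With median-of-ratios scaling, which shifts the median gene by 0.102 to near 0, 13 members rose and 5 fell, while the calls over all genes went to 51.8% higher, against 64.9% higher without that scaling. By family, 12 glutathione transferases rose, 0 fell and 10 were not called; 2 UDP-glucuronosyltransferases rose, 4 fell and 6 were not called; 1 sulfotransferase rose, 1 fell and 4 were not called.

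**Figure D2:**
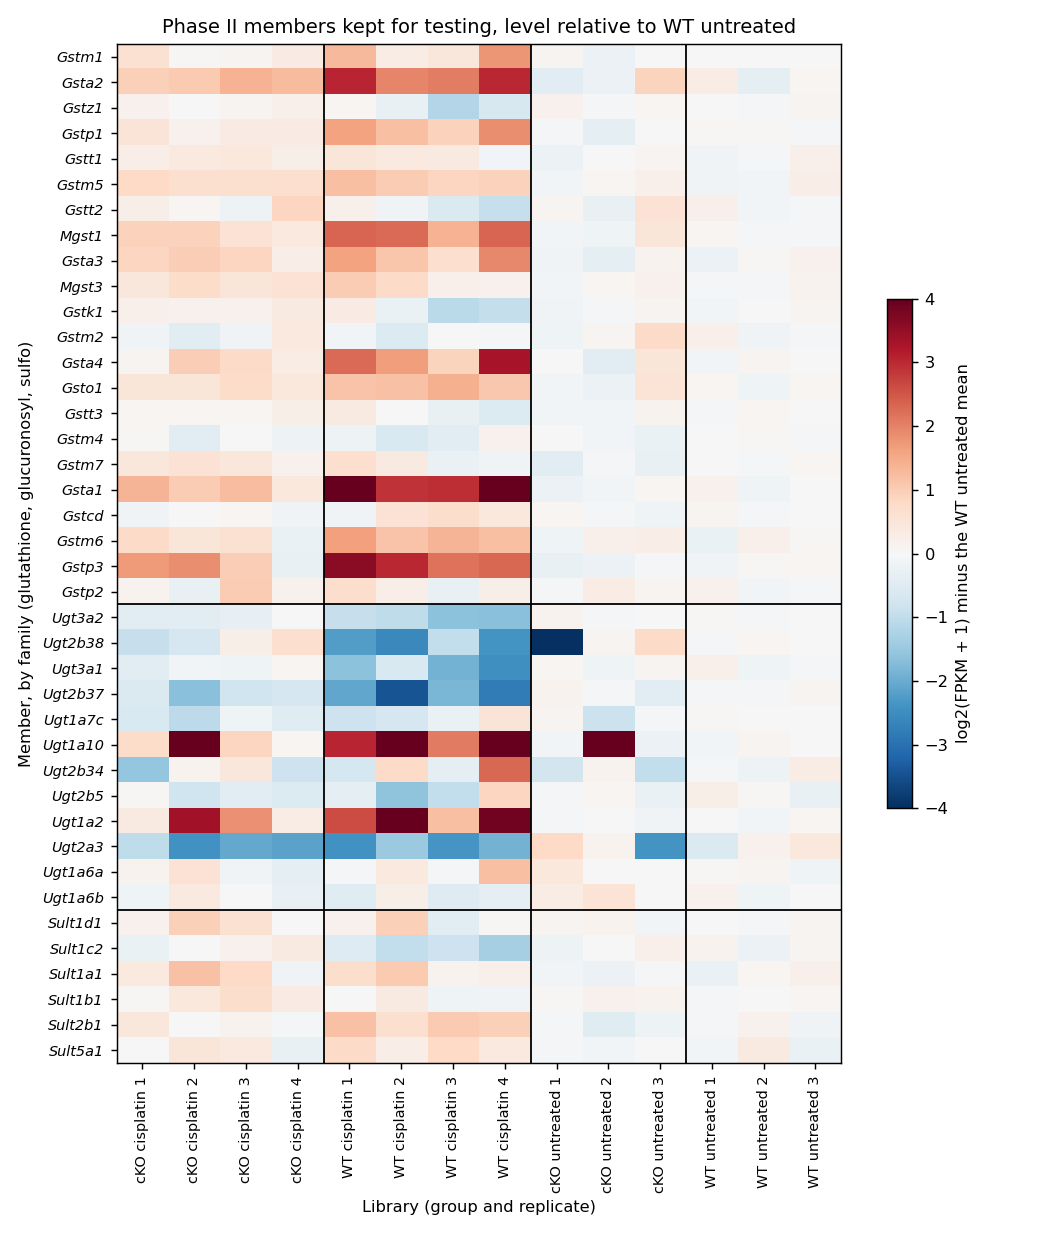
Level of the 40 members tested (rows, ordered by family and mean level) in each of the 14 libraries (columns), as log2(FPKM + 1) minus the mean of the WT untreated libraries; red is higher and blue lower, and the colour scale ends at 4. The alpha-class genes Gsta1 to Gsta4, Gstp1 and Mgst1 are red in the 4 WT cisplatin columns and paler in cKO cisplatin, Ugt3a1, Ugt3a2 and Ugt2b37 are blue in WT cisplatin, and Ugt2b38 is dark blue in 1 cKO untreated library.

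All 4 alpha-class glutathione transferases rose in WT. These enzymes detoxify lipid peroxidation products and reduce lipid hydroperoxides. Gsta1 (ENSMUSG00000074183, mm10 chromosome 9, 78230656 to 78242684, plus strand) was 32.4, 11.0, 11.7 and 62.8 FPKM in WT cisplatin, against 0.851, 0.441 and 0.617 FPKM in WT untreated, a rise of 3.88 ± 0.46 (adjusted p = 6.37e-05). Gsta2 (chromosome 9, 78331018 to 78355788, minus strand) was 1214.9, 563, 604 and 1188.7 FPKM in WT cisplatin, against 178, 112 and 155 FPKM in WT untreated, a rise of 2.52 ± 0.33 (adjusted p = 1.19e-04). Every treated library lay above every untreated one for both genes, with replicates 1 and 4 the highest. Gsta2 supplied 23.4% of the summed glutathione transferase level in WT cisplatin and 8.45% in WT untreated. Gsta4, whose product is known for conjugating 4-hydroxynonenal, was 103, 68.4, 39.4 and 212 FPKM in WT cisplatin, against 19.1, 22.6 and 20.6 FPKM in WT untreated (2.03 ± 0.42, adjusted p = 0.0025). Gsta3 averaged 150 ± 55.7 FPKM in WT cisplatin (n = 4) and 56.2 ± 8.10 FPKM in WT untreated (n = 3), a rise of 1.33 ± 0.26 (adjusted p = 0.00163). Reads of Gsta1 and Gsta2 are hard to divide: 90.5% of the 50-base words in Gsta1 transcripts also occur in other genes, 75.7% in the predicted gene Gm3776, and 49.8% of those of Gsta2, 36% in Gsta1. Gsta4 shares no such word with another gene.

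Of the pi class 2 of the 3 members tested rose, as did both microsomal enzymes tested. Gstp1, an abundant enzyme that binds many electrophiles, was 339, 259, 209 and 407 FPKM in WT cisplatin, against 115, 114 and 104 FPKM in WT untreated, and rose by 1.40 ± 0.18 (adjusted p = 1.08e-04). Its near copy Gstp2 stayed at 0.766 to 2.54 FPKM in WT cisplatin and 0.981 to 1.42 FPKM in WT untreated, was not called, and shares 33.7% of the words of Gstp1. Gstp3 was 13.8, 8.85, 4.47 and 4.94 FPKM in WT cisplatin, against 0.111, 0.263 and 0.280 FPKM in WT untreated, and rose by 2.77 ± 0.44 (adjusted p = 4.12e-04). Gstp3, Ugt1a2 and Ugt1a10 were under 0.5 FPKM in each WT untreated library. Gstp3 and Ugt1a2 were so in each cKO untreated library too, and passed the filter on low values only through cisplatin libraries. The filter thus favoured members that were higher with cisplatin, and the counts of members that rose include both genes. Ugt1a10 also had 26.1 FPKM in 1 cKO untreated library. Mgst1 (chromosome 6, 138140316 to 138156755, plus strand) encodes a membrane-bound transferase that also reduces lipid hydroperoxides. It was 301, 290, 155 and 298 FPKM in WT cisplatin, against 62.6, 56.9 and 57.4 FPKM in WT untreated, a rise of 2.08 ± 0.23 (adjusted p = 4.01e-05). No word of its transcripts occurs in another gene, and the lowest treated library was still above all untreated ones. Mgst3 rose less, by 0.54 ± 0.18 (adjusted p = 0.0291), with 95.5 ± 28.1 FPKM in WT cisplatin and 63.3 ± 4.93 FPKM in WT untreated.

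Of the mu class, 3 of the 6 members tested rose. Gstm1, the leading transcript of the family, was 1319, 655, 733 and 1794.7 FPKM in WT cisplatin, against 532, 538 and 522 FPKM in WT untreated (0.96 ± 0.28, adjusted p = 0.0179). Gstm5 averaged 209 ± 21.7 FPKM in WT cisplatin and 105 ± 17.0 FPKM in WT untreated (1.00 ± 0.12, adjusted p = 6.18e-05), and 13.9% of its exon bases overlap the antisense gene 4933431E20Rik. The scarcer Gstm6 averaged 5.43 ± 1.02 FPKM in WT cisplatin and 1.55 ± 0.42 FPKM in WT untreated (1.33 ± 0.23, adjusted p = 6.71e-04). Gsto1, an omega-class enzyme with thiol transferase activity, rose by 1.20 ± 0.16 (adjusted p = 1.46e-04), with 59.4 ± 6.71 FPKM in WT cisplatin and 25.2 ± 2.59 FPKM in WT untreated. None of the 3 theta-class genes tested was called: their changes ran from −0.35 (Gstt2) to 0.28 (Gstt1), and the class summed to 309 ± 71.8 FPKM in WT cisplatin and 303 ± 15.7 FPKM in WT untreated. Gstz1 (−0.50, adjusted p = 0.078) and the mitochondrial and peroxisomal Gstk1 (−0.49, adjusted p = 0.147) had lower means in WT cisplatin and were not called.

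**Figure D3:**
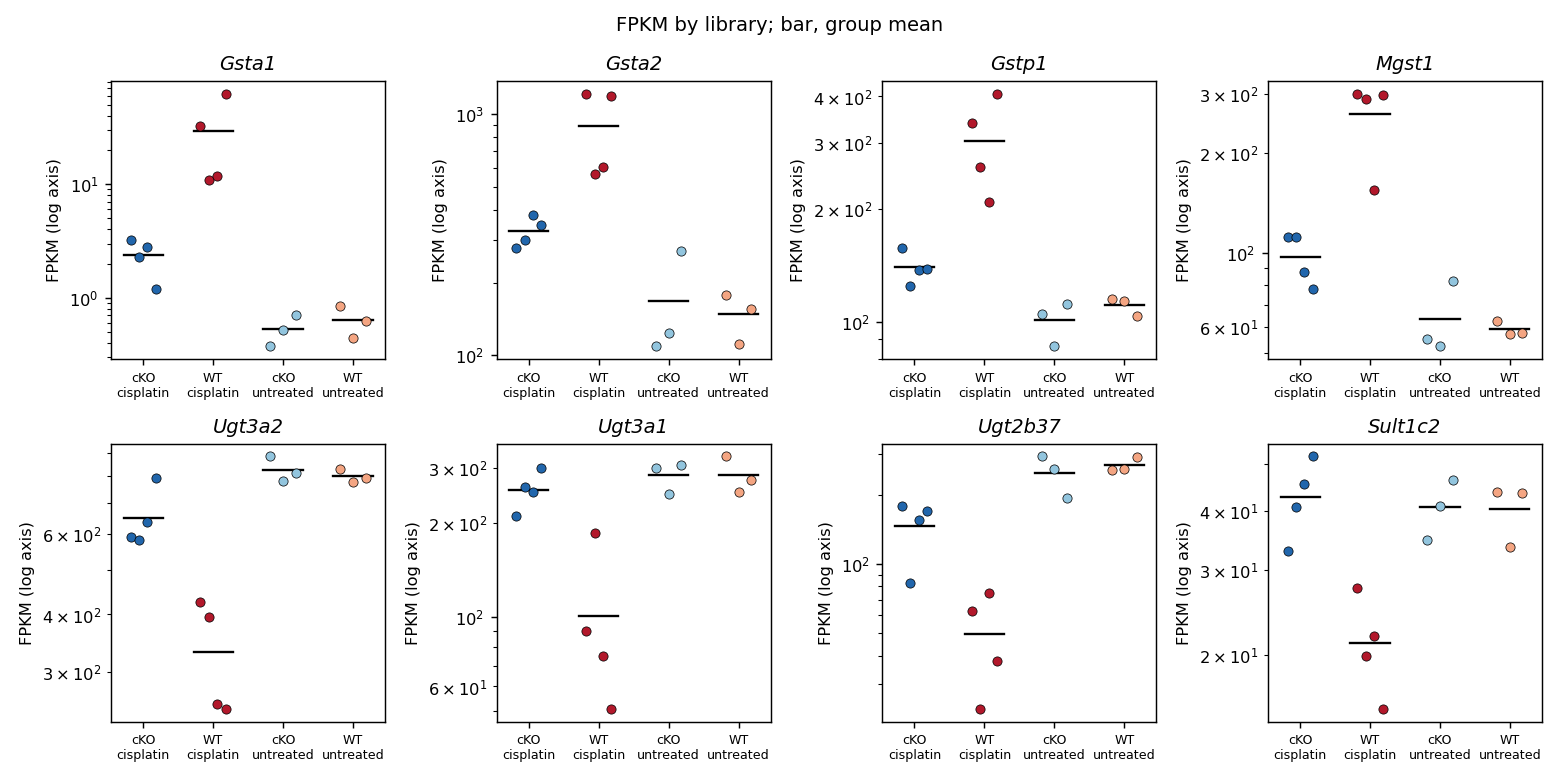
FPKM of 8 members in each library (points) with the group mean (bar), on log axes, with the groups ordered cKO cisplatin, WT cisplatin, cKO untreated and WT untreated. For Gsta1, Gsta2, Gstp1 and Mgst1 the WT cisplatin points lie above all others, and for Ugt3a2, Ugt3a1, Ugt2b37 and Sult1c2 they lie below all others.

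The antioxidant response element is a promoter sequence known from Gst genes, and any part of it in the changes described here was not tested. Its core, TGACNNNGC, was searched on both strands of the RefSeq promoter windows (GRCm38.p6, 250 bases before to 50 after the start), which hold 73 windows of 60 members. It occurred in 4 of these windows (5.48%), against 12.4% of the 32851 windows counted over all genes. The windows of a whole chromosome were left out of these counts. The 4 were among the 34 windows of 24 glutathione transferases (11.8%), and the 19 windows of UDP-glucuronosyltransferases and 20 of sulfotransferases held 0. The 4 are printed because they are the members that hold it; capitals mark the match, and each sequence runs 5′ to 3′ along the gene.
Gsta3 (chr1:21240335-21240634, plus strand): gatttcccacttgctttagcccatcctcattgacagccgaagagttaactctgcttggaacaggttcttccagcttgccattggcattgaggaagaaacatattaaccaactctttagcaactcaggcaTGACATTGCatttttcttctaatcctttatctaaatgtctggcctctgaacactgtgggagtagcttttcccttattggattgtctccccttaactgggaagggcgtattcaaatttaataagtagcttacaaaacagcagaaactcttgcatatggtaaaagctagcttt
Gstm5 (chr3:107895604-107895903, plus strand): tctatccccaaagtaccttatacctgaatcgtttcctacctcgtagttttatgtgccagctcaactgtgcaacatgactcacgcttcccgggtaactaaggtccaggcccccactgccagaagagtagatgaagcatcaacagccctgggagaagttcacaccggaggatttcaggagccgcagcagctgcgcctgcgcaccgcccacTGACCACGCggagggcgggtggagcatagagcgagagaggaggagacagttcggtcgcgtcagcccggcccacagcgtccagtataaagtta
Gstm7 (chr3:107931565-107931864, minus strand): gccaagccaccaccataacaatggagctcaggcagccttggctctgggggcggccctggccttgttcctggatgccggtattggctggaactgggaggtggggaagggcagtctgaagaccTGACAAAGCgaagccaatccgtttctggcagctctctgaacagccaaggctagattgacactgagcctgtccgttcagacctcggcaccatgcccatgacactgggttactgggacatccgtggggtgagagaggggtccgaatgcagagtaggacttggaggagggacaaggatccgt
Mgst1 (chr6:138140277-138140576, plus strand): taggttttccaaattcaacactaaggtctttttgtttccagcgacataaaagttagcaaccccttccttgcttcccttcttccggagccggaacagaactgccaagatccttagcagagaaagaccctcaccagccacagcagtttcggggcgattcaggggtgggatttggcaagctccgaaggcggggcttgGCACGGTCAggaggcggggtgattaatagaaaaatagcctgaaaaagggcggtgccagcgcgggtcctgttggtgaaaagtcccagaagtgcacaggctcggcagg
Counted from the start of transcription, the match began at position −121 in Gsta3, −42 in Gstm5, −129 in Gstm7 and −56 in Mgst1, where it lies on the opposite strand. Of the 12 glutathione transferases that rose with cisplatin in WT, 3 had a match (Gsta3, Gstm5 and Mgst1), 8 had none in their windows and Gsta4 had no window to search. Gstm7, which has a match, was not called (0.16 ± 0.20, adjusted p = 0.562). A window without a match says nothing of sequence farther away.

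Among the abundant UDP-glucuronosyltransferases, Ugt3a2, Ugt3a1 and Ugt2b37 fell in WT. Ugt3a2 (chromosome 15, 9335550 to 9370955, plus strand) was 425, 395, 256 and 249 FPKM in WT cisplatin, against 827, 778 and 792 FPKM in WT untreated, and fell by 1.31 ± 0.18 (adjusted p = 1.56e-04). Its neighbour Ugt3a1 was 90.3, 186, 74.9 and 50.8 FPKM in WT cisplatin, against 326, 250 and 274 FPKM in WT untreated, and fell by 1.64 ± 0.31 (adjusted p = 0.00121). The libraries of the groups were apart for both genes. Ugt2b37, of a subfamily that conjugates steroids and drugs, was 62.6, 23.4, 75.0 and 38.0 FPKM in WT cisplatin, against 256, 259 and 293 FPKM in WT untreated, and fell by 2.54 ± 0.34 (adjusted p = 1.34e-04). Ugt2a3 was 0.515, 1.90, 0.609 and 1.19 FPKM in WT cisplatin, against 4.49, 8.17 and 9.96 FPKM in WT untreated, and fell by 2.05 ± 0.59 (adjusted p = 0.0165). Ugt2b38 was 67.6, 53.6, 161 and 61.0 FPKM in WT cisplatin, against 305, 342 and 320 FPKM in WT untreated. Those libraries did not overlap either, but the change of −2.04 ± 1.52 was not called (adjusted p = 0.327), because its error comes from all 4 groups and 1 cKO untreated library held almost none of this transcript. Without that library, cKO untreated replicate 1, the change was −2.04 with an adjusted p of 0.00258, and with only the 2 WT groups in the fit it was 0.00371. Ugt2b38 shares 37.4% of its 50-base words with other genes, and Ugt2b37 shares 18.3%.

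Of the 5 Ugt1a genes tested, 2 rose and 0 fell. They arise from 1 locus on chromosome 1 in which separate first exons are spliced to shared later exons. In the 5 tested, 50.3% to 64.3% of the exon bases of each are shared, so the division of reads among them is uncertain. Ugt1a7c, the leading one, was 88.5, 96.9, 130 and 224 FPKM in WT cisplatin, against 162, 153 and 154 FPKM in WT untreated, and was not called (−0.31 ± 0.30, adjusted p = 0.458). Ugt1a10 was 10.4, 93.8, 4.82 and 26.4 FPKM in WT cisplatin, against 0.283, 0.478 and 0.358 FPKM in WT untreated, and rose by 3.89 ± 1.27 (adjusted p = 0.0299). The treated libraries were all above the untreated ones and spread widely among themselves. Ugt1a2, which passed the filter only through cisplatin libraries, was 5.79, 24.1, 1.55 and 15.0 FPKM in WT cisplatin. It was 0.119, 0.031 and 0.170 FPKM in WT untreated, and rose by 3.05 ± 0.75 (adjusted p = 0.00682). Ugt1a1, the bilirubin-conjugating enzyme, had too low a mean to be tested and was 0.429, 2.13, 0.149 and 1.79 FPKM in WT cisplatin, against 0.0555, 0.123 and 0.0351 FPKM in WT untreated.

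Among sulfotransferases, the dominant Sult1d1 was 445, 770, 290 and 412 FPKM in WT cisplatin, against 387, 378 and 422 FPKM in WT untreated, and was not called (0.19 ± 0.28, adjusted p = 0.64). Sult1c2 was 27.6, 19.9, 21.9 and 15.4 FPKM in WT cisplatin, against 43.8, 33.5 and 43.6 FPKM in WT untreated, and fell by 0.91 ± 0.19 (adjusted p = 0.00238). Sult2b1, which sulfates cholesterol and is best known from the epidermis, was 3.56, 2.19, 3.23 and 2.96 FPKM in WT cisplatin, against 0.998, 1.31 and 0.853 FPKM in WT untreated, and rose by 0.95 ± 0.17 (adjusted p = 8.24e-04). The groups were apart for Sult1c2 and Sult2b1 and overlapped for Sult1d1. Part of Sult2b1, 8.1% of its exon bases, overlaps antisense genes, and the counting strand is not given in the sources used here. Sult1e1, the estrogen sulfotransferase, was too low to be tested, with 0.457, 1.5, 0.534 and 0.0934 FPKM in WT cisplatin, against 0, 0 and 0.0628 FPKM in WT untreated.

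In cKO kidneys 0 of the 40 members were called with cisplatin, and the median log2 change was 0.28 over the members and 0.02 over all genes. Over all genes tested, 0% rose and 0.0197% fell; 1754 genes and 15 members (13 higher and 2 lower) had an unadjusted p under 0.05, where 7.05% of all genes were higher and 4.5% lower at that level. The libraries did not overlap for 11 members higher and 1 lower, against 7.17% and 5.03% of all genes. Without the library labelled cKO cisplatin replicate 4, 2 members rose, Gstm5 (0.63, adjusted p = 0.0311) and Gstp3 (1.70, adjusted p = 0.0232), and 0 fell, where 1.13% of all genes rose and 0.757% fell. Gstp3 passed the filter on low values only through cisplatin libraries, so the filter favoured its place in this count. With libraries weighted by their quality in limma, 9 members rose and 1 fell, where 3.66% of all genes rose and 2.09% fell.

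The values of the leading genes ran as follows. Gsta1 was 3.22, 2.26, 2.81 and 1.20 FPKM in cKO cisplatin, against 0.372, 0.523 and 0.707 FPKM in cKO untreated (1.10 ± 0.46, adjusted p = 0.375). Gsta2 was 280, 300, 380 and 348 FPKM in cKO cisplatin, against 109, 124 and 272 FPKM in cKO untreated (1.07 ± 0.33, adjusted p = 0.209). Neither gene's libraries overlapped between the groups. Mgst1 was 112, 112, 87.8 and 78.2 FPKM in cKO cisplatin, against 55.0, 52.4 and 82.3 FPKM in cKO untreated (0.63 ± 0.23, adjusted p = 0.281), and here replicate 4 lay within the untreated range. Gstp3 was 2.97, 3.44, 1.39 and 0 FPKM in cKO cisplatin, against 0, 0.0344 and 0.188 FPKM in cKO untreated; replicate 4, listed at 0, was again within the untreated range. Ugt3a2 was 591, 580, 635 and 793 FPKM in cKO cisplatin, against 883, 779 and 811 FPKM in cKO untreated (−0.35 ± 0.18, adjusted p = 0.489), and only replicate 4 overlapped the untreated libraries. Ugt2b37 was 179, 82.8, 156 and 170 FPKM in cKO cisplatin, against 294, 258 and 194 FPKM in cKO untreated (−0.80 ± 0.34, adjusted p = 0.389), with the groups apart. Sult1c2 was 33.0, 40.7, 45.4 and 51.9 FPKM in cKO cisplatin, against 34.8, 40.9 and 46.4 FPKM in cKO untreated, and the groups overlapped throughout.

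Summed by family, glutathione transferases were at 2372.9 ± 132 FPKM in cKO cisplatin (n = 4) and 1786.7 ± 251 FPKM in cKO untreated (n = 3), a ratio of 1.33, or 1.31 without replicate 4. UDP-glucuronosyltransferases were at 1503.2 ± 302 FPKM in cKO cisplatin and 1823.2 ± 181 FPKM in cKO untreated, a ratio of 0.824, or 0.752 without replicate 4. Sulfotransferases were at 615 ± 173 FPKM in cKO cisplatin and 465 ± 36.8 FPKM in cKO untreated, a ratio of 1.32, or 1.44 without replicate 4. Over all single libraries left out, that ratio ran from 1.17 to 1.44. The libraries of the groups were apart for the glutathione transferases and overlapped for the other families. In those, only replicate 4 of cKO cisplatin lay within the untreated range. Sult1d1 made most of the sulfotransferase sum, with 447, 763, 606 and 390 FPKM in cKO cisplatin, against 431, 440 and 363 FPKM in cKO untreated (0.38 ± 0.28, adjusted p = 0.661). The tubular injury sums beside these values were 698 to 3995.3 FPKM in cKO cisplatin and 548 to 766 FPKM in cKO untreated; how far they account for the enzymes was not tested.

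Across the 40 members the responses of the genotypes, which share no libraries, had Pearson r = 0.536 and Spearman rho = 0.70, a description over genes that share libraries within each response. The sign was the same for 32 of the 40. Among those of opposite sign was Ugt2b38, at −2.04 in WT and 2.24 in cKO. Without the library labelled cKO untreated replicate 1 its change in cKO was −0.62 ± 0.47, of the same sign as in WT. Of the 20 members called in WT, a set chosen by its change in WT and so given as a description, 19 had the same sign in cKO and 20 had the smaller change there, and the median ratio of the cKO to the WT log2 change was 0.333. Without the library labelled cKO cisplatin replicate 4 the sign was the same for 20 of the 20, 20 were smaller and the median ratio was 0.372. The exception with all libraries was Sult1c2, at 0.06 in cKO.

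**Figure D4:**
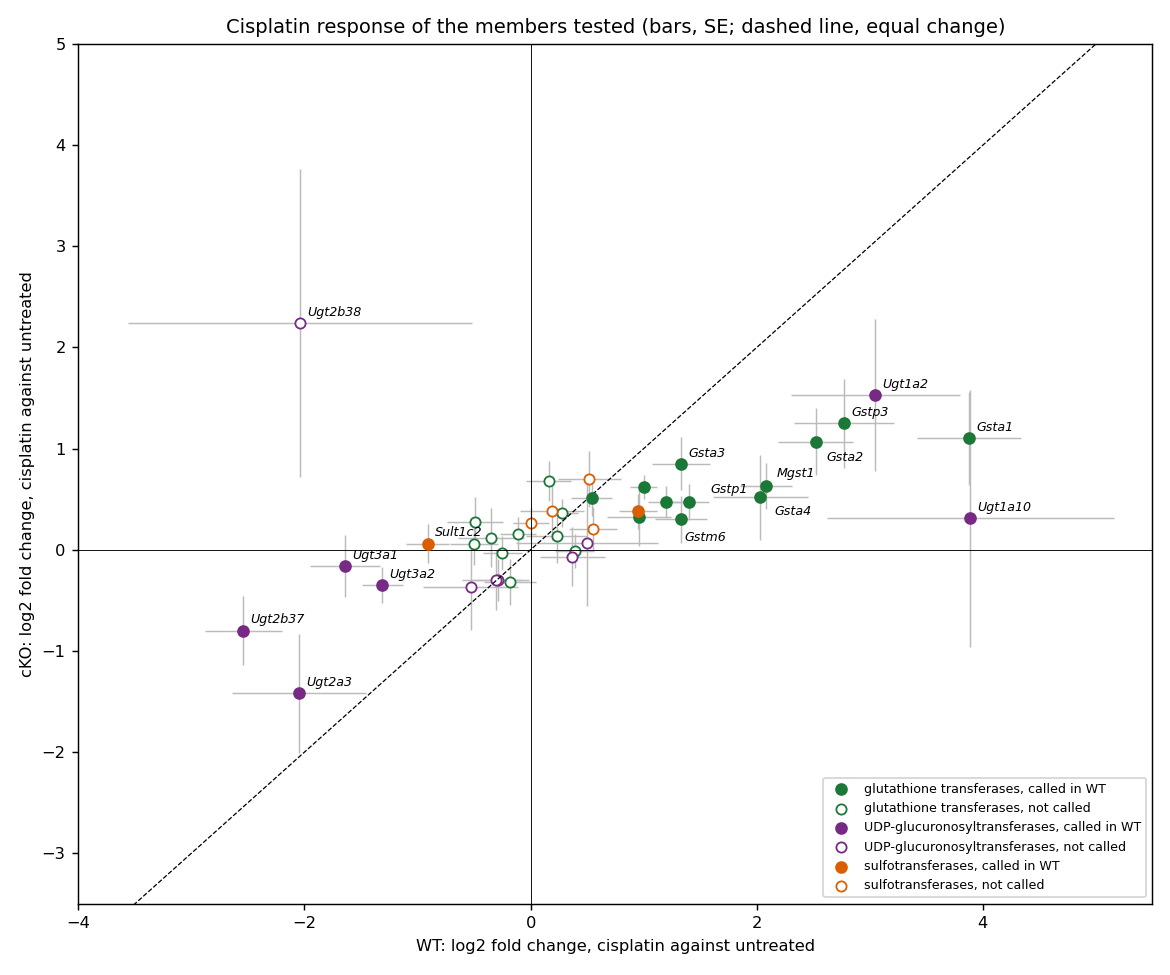
Log2 fold change of cisplatin against untreated in WT (horizontal) and cKO (vertical) for the 40 members tested, with SE bars; filled points were called in WT, the dashed line marks equal change, and names are shown for the called members with the larger changes and for Ugt2b38. Members called in WT lie nearer to 0 on the cKO axis than on the WT axis, and Ugt2b38 (−2.04 in WT, 2.24 in cKO) stands apart with the widest error bars. The cKO value of Ugt2b38 rests on the library labelled cKO untreated replicate 1, without which it was −0.62 ± 0.47.

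Between the untreated genotypes, 0 of the 40 members were called (0% of all genes tested rose and 0% fell), and at an unadjusted p under 0.05 there were 0 members. Only Gstm7 (−0.27 ± 0.21) had libraries that did not overlap, 1 member lower and 0 higher, against 4.25% and 2.01% of all genes. The median difference, cKO minus WT, was −0.03 over the members and −0.02 over all genes. The extremes were Ugt2b38 (−2.42 ± 1.62) and Ugt1a10 (1.32 ± 1.36), and each came from 1 library. Ugt2b38 was 0.14, 345 and 553 FPKM in cKO untreated, against 305, 342 and 320 FPKM in WT untreated. In that same first library the neighbouring Ugt2b37 was 294 FPKM and Ugt2b5 was 8.70 FPKM, both near the other untreated libraries. Ugt1a10 was 0.282, 26.1 and 0.153 FPKM in cKO untreated, against 0.283, 0.478 and 0.358 FPKM in WT untreated. Among cKO cisplatin libraries too a single one was high, with 1.3, 38.6, 1.48 and 0.441 FPKM. Ugt1a9, of the same locus and too low to be tested, was 0, 1.35, 0.0193 and 0 FPKM in cKO cisplatin and 0, 1.23 and 0.012 FPKM in cKO untreated, high in the same pair of libraries. Within WT cisplatin, Ugt2b34 was 4.06, 13.2, 5.54 and 40 FPKM, against 6.82, 6.25 and 9.14 FPKM in WT untreated. Ugt2b35, too low to be tested, was 0.122, 0.0437, 0.00549 and 3.52 FPKM in WT cisplatin, also highest in replicate 4. The hepatocyte marker sum of that library was 167 FPKM, against 117 to 231 FPKM in WT untreated. Any link between this sum and the levels of these genes was not tested.

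**Figure D5:**
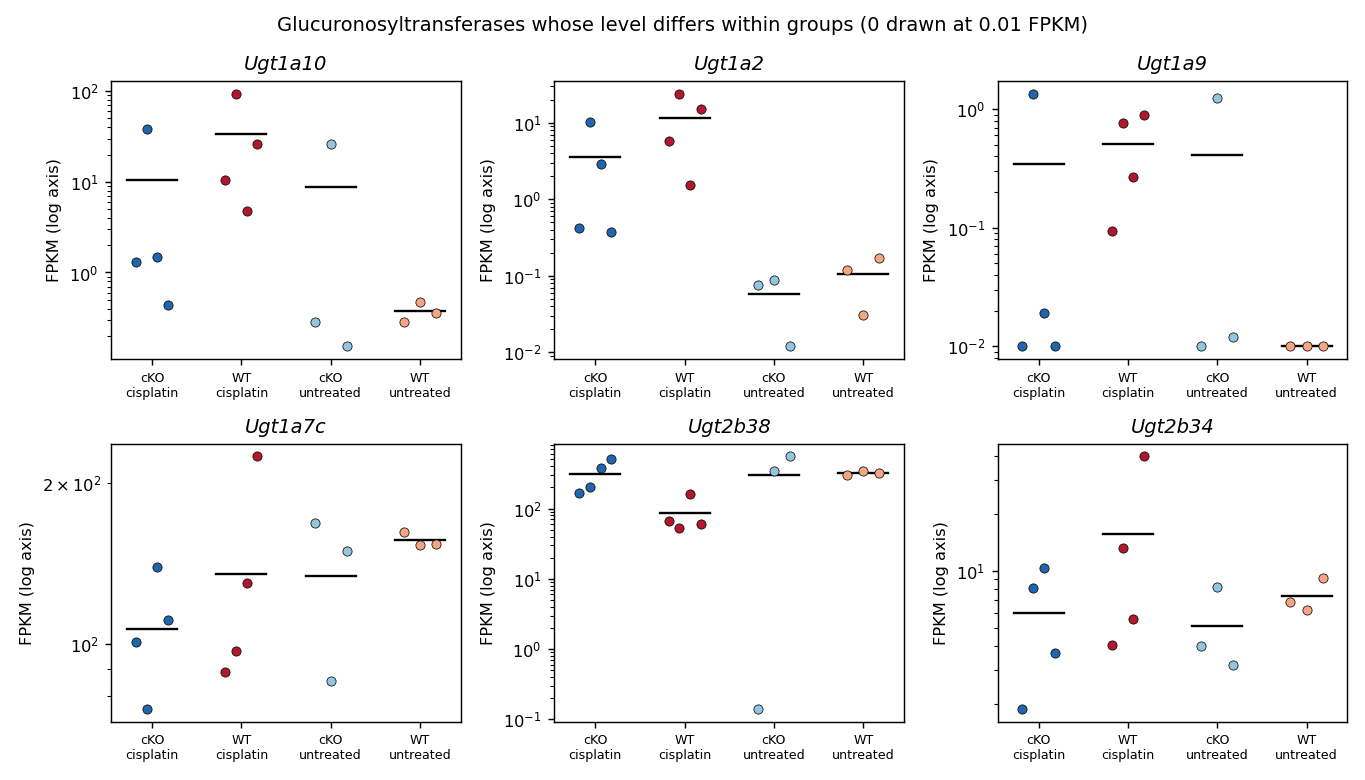
FPKM in each library (points) and group mean (bar) on log axes for 6 UDP-glucuronosyltransferases whose level differed within groups, with values of 0 drawn at 0.01 FPKM. Ugt2b38 is at 0.14 FPKM in 1 cKO untreated library, and Ugt1a10 and Ugt1a9 are high in replicate 2 of cKO cisplatin and of cKO untreated.

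After cisplatin, the glutathione transferases summed to 2372.9 ± 132 FPKM in cKO and 3816.4 ± 1170 FPKM in WT (SD, n = 4 each), a ratio of 0.622, and the UDP-glucuronosyltransferases to 1503.2 ± 302 FPKM in cKO and 776 ± 81.6 FPKM in WT, a ratio of 1.94. The libraries of the genotypes were apart for both sums. Without the library labelled cKO cisplatin replicate 4, the cKO sums were 2347.7 ± 149 FPKM for the glutathione transferases and 1371.3 ± 181 FPKM for the UDP-glucuronosyltransferases (SD, n = 3). Among the 40 members, 6 were higher and 10 lower in cKO, where 8.77% of all genes tested were higher and 18.1% lower, 26.9% in all, and the median difference was 0.02 over the members and −0.11 over all genes. The libraries did not overlap for 5 members higher and 9 lower, against 7.33% and 13.8% of all genes. With median-of-ratios scaling 7 members were higher and 9 lower, and the calls over all genes were 47.3% higher, against 32.6% higher without that scaling. Without the library labelled cKO cisplatin replicate 4 the counts were 4 higher and 9 lower (6.45% and 12.5% of all genes). By family, 2 glutathione transferases were higher and 9 lower of 22, 3 UDP-glucuronosyltransferases were higher and 0 lower of 12, and 1 sulfotransferase was higher and 1 lower of 6. These values use the WT cisplatin libraries already described, so they are no independent support for the response in WT.

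Gsta1 averaged 2.37 ± 0.875 FPKM in cKO cisplatin and 29.5 ± 24.3 FPKM in WT cisplatin (SD, n = 4 each), a difference of −2.87 ± 0.43 (adjusted p = 5.79e-04). Mgst1 averaged 97.4 ± 17.1 FPKM in cKO cisplatin and 261 ± 71.2 FPKM in WT cisplatin (−1.38 ± 0.21, adjusted p = 6.88e-04). Gstp1 averaged 140 ± 13.9 FPKM in cKO cisplatin and 303 ± 87.3 FPKM in WT cisplatin (−1.07 ± 0.17, adjusted p = 8.59e-04). In all 3 genes every cKO library was below every WT library. Also lower in cKO were Gsta2 (−1.36), Gsta4 (−1.50), Gstp3 (−1.70), Gstm6 (−0.94), Gsto1 (−0.66), Sult2b1 (−0.82) and Gstm5 (−0.32), with adjusted p from 0.00241 (Sult2b1) to 0.0454 (Gstm5). The Gstm5 call ended under 15 of 23 alternatives, among them without the library labelled cKO cisplatin replicate 4 (−0.31, adjusted p = 0.0936) and with median-of-ratios scaling (−0.19, adjusted p = 0.344). Gsta3 (−0.59, adjusted p = 0.0868) and Gstm1 (−0.69, adjusted p = 0.0659) were not called. Gsta1 shares most of its words with Gm3776, so its part in the count is uncertain, whereas Mgst1 and Gstp3 share none. The count of lower members includes Gstp3, which passed the filter on low values only through cisplatin libraries.

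On the other side, Ugt3a2 averaged 650 ± 98.7 FPKM in cKO cisplatin and 331 ± 91.5 FPKM in WT cisplatin (1.00 ± 0.17, adjusted p = 0.00119). Ugt3a1 averaged 255 ± 35.9 FPKM in cKO cisplatin and 100 ± 59.1 FPKM in WT cisplatin (1.49 ± 0.28, adjusted p = 0.00246). Ugt2b37 averaged 147 ± 43.7 FPKM in cKO cisplatin and 49.8 ± 23.3 FPKM in WT cisplatin (1.61 ± 0.32, adjusted p = 0.00301). The cKO libraries were above the WT ones throughout for these 3 genes, and the same held for Sult1c2, at 42.7 ± 7.94 FPKM in cKO cisplatin and 21.2 ± 5.09 FPKM in WT cisplatin (0.99 ± 0.17, adjusted p = 0.00161). Without the library labelled cKO cisplatin replicate 4, the differences were 0.90 for Ugt3a2 (adjusted p = 0.00468) and 1.41 for Ugt3a1 (adjusted p = 0.00945). They were then 1.52 for Ugt2b37 (adjusted p = 0.0115) and 0.89 for Sult1c2 (adjusted p = 0.00633). Ugt2b38 was 168, 201, 376 and 514 FPKM in cKO cisplatin, all above the 161 FPKM of the highest WT cisplatin library. It was called only without cKO untreated replicate 1 (1.86, adjusted p = 0.00486) or with only the groups compared in the fit (adjusted p = 0.0226). Gstz1 (0.62, adjusted p = 0.0296) and Gstk1 (0.73, adjusted p = 0.034) were called higher in cKO, and both calls ended without the library labelled cKO cisplatin replicate 4, with like folds (0.60, adjusted p = 0.0707, for Gstz1 and 0.69, adjusted p = 0.0837, for Gstk1). Without single libraries in turn, 5 ended the call of Gstz1 and 6 that of Gstk1. Beside this, 10 of 12 proximal tubule markers and 4 of 8 loop and distal tubule markers were higher in cKO than in WT after cisplatin. The tubular injury genes were lower (9 of 9), where 8.77% of all genes were higher and 18.1% lower. The part of these markers in the result was not tested.

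The difference of the responses, cKO minus WT, asks directly whether the drug acted differently in the genotypes. It was called for 2 of the 40 members, both lower, where 1.41% of all genes tested were higher and 2.65% lower, 4.06% in all. Gsta1 had a difference of −2.77 ± 0.65 (adjusted p = 0.0342) and Mgst1 of −1.45 ± 0.32 (adjusted p = 0.028). Both calls ended without the library labelled cKO cisplatin replicate 4 (−2.58, adjusted p = 0.066, for Gsta1 and −1.35, adjusted p = 0.0541, for Mgst1), when 0.836% of all genes were higher and 1.34% lower. They also ended without some other single libraries, 9 in all for Gsta1 and 8 for Mgst1, with adjusted p of 0.0512 to 0.0952. Close behind were Ugt3a2 (0.96, adjusted p = 0.055), Sult1c2 (0.97, adjusted p = 0.0589), Gstp1 (−0.93, adjusted p = 0.0598) and Ugt2b37 (1.75, adjusted p = 0.0607), none of them called. At an unadjusted p under 0.05, 10 of the 40 members were lower and 4 higher, where 13.7% of all genes were lower and 7.68% higher.

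Genes that supply donors for conjugation, handle the products or regulate the enzymes were counted on lists set by function, beside the 22.3% of all genes that rose and 12.1% that fell with cisplatin in WT. Of 20 tested genes of glutathione supply and mercapturate formation, 5 rose and 8 fell with cisplatin in WT. The 4 named by smallest p all fell: Acy3 (427 ± 143 FPKM in WT cisplatin and 1624.8 ± 157 FPKM in WT untreated, −1.98, adjusted p = 2.30e-04), the dipeptidase gene Dpep1 (−1.62), the aminoacylase gene Acy1 (−1.34) and the cystathionine synthase gene Cbs (−1.13). Of 9 genes of UDP-glucuronate supply and removal, 2 rose, a share like that of all genes, and 0 fell: Pgm1 (1.26, adjusted p = 3.35e-04) and Uxs1, which consumes UDP-glucuronate to make UDP-xylose (1.22, adjusted p = 3.66e-04). Ugdh, the enzyme that makes UDP-glucuronate, averaged 74.4 ± 22.4 FPKM in WT cisplatin and 53.2 ± 4.25 FPKM in WT untreated and was not called (0.43, adjusted p = 0.068). Of 12 genes of PAPS and sulfate supply, 1 rose and 7 fell. The PAPS synthase gene Papss1 fell by 0.97 ± 0.11 (adjusted p = 6.18e-05), with 37.2 ± 3.39 FPKM in WT cisplatin and 73.7 ± 6.63 FPKM in WT untreated, Bpnt1, which removes the spent donor PAP, fell by 0.89 and the sulfite oxidase gene Suox by 1.29, while the sulfate carrier gene Slc13a1 rose by 1.77 ± 0.25 (adjusted p = 1.78e-04).

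Of 14 other conjugating and related enzymes, 4 rose and 6 fell in WT, beside the same 22.3% and 12.1% of all genes. Inmt, a methyltransferase, fell by 6.04 ± 0.54 (adjusted p = 1.36e-05), with 16.4 ± 11.0 FPKM in WT cisplatin and 1009.8 ± 68.6 FPKM in WT untreated, and Acsm2, which activates acids for glycine conjugation, fell by 3.11 ± 0.24 (adjusted p = 6.47e-06). The quinone reductase gene Nqo1 rose by 2.25 ± 0.28 (adjusted p = 8.07e-05), and the epoxide hydrolase gene Ephx1 rose by 2.65 ± 0.34 (adjusted p = 1.05e-04). Of 13 exporters and carriers of conjugates or drugs, 5 rose and 2 fell. Abcc3 (1.55) and Abcb1a (1.36) were among those that rose. Abcc6 (−1.25) and the organic anion carrier gene Slc22a6 (−1.06) fell, and Slc22a6 is also one of the proximal tubule markers. Of 16 regulators tested, 3 rose and 5 fell. Nfe2l2, which encodes the transcription factor NRF2, rose by 1.21 ± 0.17 (adjusted p = 1.49e-04), with 107 ± 19.0 FPKM in WT cisplatin and 45.0 ± 1.13 FPKM in WT untreated, and Maff, a small Maf partner of NRF2, rose by 2.82 ± 0.29 (adjusted p = 2.81e-05). The bile acid receptor gene Nr1h4 fell by 0.70 ± 0.11 (adjusted p = 4.00e-04).

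In cKO, 0 genes of these 6 lists were called with cisplatin, where 0% of all genes rose and 0.0197% fell. Without the library labelled cKO cisplatin replicate 4, 1 gene of PAPS supply was higher and 1 lower. Of the other conjugating enzymes 1 was then higher and 2 lower, where 1.13% of all genes rose and 0.757% fell. Nfe2l2 averaged 63.9 ± 13.9 FPKM in cKO cisplatin and 46.0 ± 2.73 FPKM in cKO untreated (0.44, adjusted p = 0.307). Between the genotypes after cisplatin, 6 genes of glutathione supply were higher and 5 lower in cKO, 0 and 3 of UDP-glucuronate supply, 4 and 1 of PAPS supply, 5 and 4 of the other conjugating enzymes, 2 and 4 of the exporters and 3 and 4 of the regulators, where 8.77% of all genes were higher and 18.1% lower. Without that library the counts were 5 and 3, 0 and 2, 4 and 1, 5 and 4, 2 and 3, and 3 and 2 in the same order of lists (6.45% and 12.5% of all genes). The difference of the responses was called for 2 PAPS genes (both higher), 3 other conjugating enzymes (2 higher and 1 lower), 1 exporter and 1 regulator (both lower), and 0 genes of glutathione and UDP-glucuronate supply, where 1.41% of all genes were higher and 2.65% lower. Without that library it was called for 2 other conjugating enzymes higher and 1 lower and for 1 regulator lower (0.836% and 1.34% of all genes). Nfe2l2 was lower in cKO by 0.74 ± 0.15 (adjusted p = 0.00411), and Nqo1 averaged 49.6 ± 9.63 FPKM in cKO cisplatin and 159 ± 68.8 FPKM in WT cisplatin (−1.57, adjusted p = 0.0011).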

How the data were processed

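RNA of 14 mouse kidney samples was sequenced by the submitters, from total RNA with an Illumina TruSeq kit per the labels' protocols, and the submitters' processing notes name HISAT2 2.0.5 and the build mm10. The counter, its strand setting, the annotation and the length definition are not given in the sources used here. The authors' deposited table holds FPKM values per gene, normalized for gene length and assigned reads, with the group of each column taken from the labels; replicate numbers follow accession order only.

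From these FPKM values, genes with a mean of at least 0.5 over the 14 libraries were kept (15193, with 34391 removed), log2(FPKM + 1) was taken, and the 4 group means were fitted in 1 model with limma 3.58.1 (R 4.3.3, trended, two-sided), with Benjamini-Hochberg adjustment over all genes kept. The model was tested on simulated data first. FPKM cannot serve as counts: with GENCODE M21 exon lengths, the steps of low values gave 36.7 to 77.0 M assigned reads per library, but a whole number of reads came out for 44.2% to 51% of the values tried (tolerance 1e-04), so no count test was run. Differences of low genes are understated on this scale.

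Named members are those with a mean of at least 1 FPKM called in at least 1 of the 5 comparisons, plus the 3 with the highest mean in each family; from each pathway list up to 4 genes with the smallest p are named, except 1 that is not reported here. Gstp2, Gstm7, Gstt1, Gstt2, Ugt1a7c, Ugt2b5, Ugt2b34 and the members left out of the tests fall outside that rule and were named after their values were seen. The members and lists were chosen with earlier results of these data known. Alternatives were another pseudocount, no or a stricter filter, other scalings, array weights, only the groups compared and leaving out libraries. Sequence sharing was counted as exact 50-base words of GENCODE M21 transcripts.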

Additional observations from a re-analysis of the deposited data

Results flagged for a closer look

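Among the 56 groups of 4 libraries tested for a library far from the others (Dixon's test, of which chance gives about 1 in 20), 3 had one. These 56 groups did not cover all members, so members outside them may also hold such a library. Mgst1 was at 155 FPKM in WT cisplatin replicate 3, below the other 3 libraries of that group, with a gap of 0.927 of the whole range. Ugt1a10 was at 38.6 FPKM in cKO cisplatin replicate 2, above the rest of its group (0.973 of the range). Ugt2b38 was at 161 FPKM in WT cisplatin replicate 3, above the rest of its group (0.870 of the range).

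The cisplatin responses of the genotypes differed, by the difference term of the limma fit, for Gsta1 (−2.77, cKO minus WT) and Mgst1 (−1.45). Both calls ended without the library labelled cKO cisplatin replicate 4.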

How the results depend on the processing

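No paired analysis was possible because the labels carry no replicate numbers. Of 2850 values of single genes under 9 alternatives and 14 left-out libraries, 2716 kept their side of the threshold, 71 lost a call and 63 gained one. In 0 of them did the sign change with a call in either fit. Sign changes between fits without a call were not counted. An example is Ugt2b38 in cKO, at 2.24, or −0.62 without cKO untreated replicate 1. Of 38 calls of the 25 named members, 28 held under all of these settings. With array weights, 9 members fell with cisplatin in WT (5 otherwise), 9 rose and 1 fell in cKO (0 and 0 otherwise), 10 were higher in cKO after cisplatin (6 otherwise), and the difference of responses was called for 8 higher and 6 lower (0 and 2 otherwise). That difference was called for 2 higher with quantile normalization, for 0 lower with no filter on low values, and for 4 higher and 4 lower without replicate 1 of both cisplatin groups. Leaving out each library in turn gave 13 to 16 rising and 4 to 7 falling members in WT, 0 to 2 and 0 to 1 in cKO, 0 and 0 between untreated genotypes, 4 to 9 higher and 9 to 13 lower in cKO after cisplatin, and 0 to 6 higher and 0 to 4 lower for the difference, highest without WT cisplatin replicate 1. The 1 falling member in cKO, without cKO untreated replicate 3, was Ugt2a3. The ratio of summed glutathione transferases ran over 1.96 to 2.39 in WT and 1.25 to 1.44 in cKO, that of UDP-glucuronosyltransferases over 0.397 to 0.429 and 0.752 to 0.873, and that of sulfotransferases over 0.944 to 1.31 and 1.17 to 1.44. Calls in WT lost without single libraries were Gstm1 (adjusted p 0.0505 to 0.0543), Mgst3 (0.0695 to 0.0903), Ugt1a10 (0.0624 to 0.0762) and Ugt2a3 (0.0568 to 0.0685); between the genotypes after cisplatin they were Gstk1 (0.0554 to 0.107), Gstz1 (0.0576 to 0.0788) and Gstm5 (0.052 to 0.0976), and Gsta4 lost its call with only the groups compared (0.0529) and without replicate 1 of both cisplatin groups (0.0515). Other settings also ended calls: median-of-ratios scaling for Gstm1 (0.052), Mgst3 (0.15) and Gstm5 (0.344), quantile normalization for Mgst3 (0.0746) and Gstm5 (0.0503), array weights for Gstm5 (0.0643), no filter for Mgst3 (0.0613), Ugt1a10 (0.0734), Gstk1 (0.0763), Gstz1 (0.0662), Gstm5 (0.0755) and both differences of responses (Gsta1 0.0907, Mgst1 0.0737), only the groups compared for Gstm1 (0.0672), Mgst3 (0.0934), Gstk1 (0.105), Gstz1 (0.0974) and Gstm5 (0.0719), and leaving out replicate 1 of both cisplatin groups for Mgst3 (0.053) and Gstm5 (0.067). The causes were not tested. Depth limits members under 0.5 FPKM, which were not tested.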
